A study of Mus musculus with 11 samples.

Results

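Open chromatin regions were examined that lie inside the transcribed ends and exons of genes, away from promoters, in naive CD4 T cells of mice. The assay was ATAC-seq: the transposase Tn5 cuts open DNA and attaches sequencing adapters to it, so that reads pile up where chromatin is accessible. A peak was included when the authors' annotation placed it in an exon, in a 3' UTR (the untranslated end of an mRNA) or at a transcript end (TTS, the transcription termination site) and its centre lay more than 1000 bases from the nearest annotated gene start. The rule took 2015 of the 45508 listed peaks, with 781 exon peaks, 484 3' UTR peaks and 750 transcript-end peaks. A further 1275 peaks with the same annotations lay within 1000 bases of a start and were not included.

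The 11 libraries came from spleen and lymph nodes of 3 untreated mice on a C57/BL6 background. All mice carried the Tg(Nr4a1-EGFP)GY139Gsat transgene, which makes green fluorescent protein under control of the Nr4a1 (Nur77) promoter, and the Foxp3tm1Flv allele, a red reporter of Foxp3. Sorted cells were CD4+ and CD44 low and lacked the red Foxp3 signal, a gate for naive conventional cells. They were sorted by green reporter and by the surface protein Ly6C into population A (reporter low, Ly6C+, n = 2, mice 1 and 3), population B (reporter intermediate, Ly6C+, n = 3), population C (reporter intermediate, Ly6C-, n = 3) and population D (reporter high, Ly6C-, n = 3). Reporter and Ly6C differ together between D and A, so their parts in a difference between these populations cannot be told apart.

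Nr4a1 is induced by signalling through the T cell receptor, and in resting cells its reporter marks how strongly a cell has been stimulated by self peptides. Ly6C on naive CD4 T cells tends to be lower where that stimulation is stronger. Open regions inside genes are often enhancers, which may act on the gene that contains them or on a neighbour. A peak over an exon or a 3' UTR is a DNA measurement and says nothing by itself of the RNA.

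Levels are given as the authors' rppm, reads in a peak scaled to a common library size. Depth differed widely: the scaling total was 2597176 reads in D of mouse 1 and 36859228 reads in D of mouse 3, with the other 9 libraries between. In D of mouse 1, 19.3% of the 2015 peaks had fewer than 10 reads, against at most 1.79% in any other library. Promoter peaks of T cell genes were open in all 11 libraries, with Cd3e at 42.4 to 62.2 rppm and Lck at 47.7 to 55.8 rppm. Of the 14 CD4 T cell markers checked, 14 had a listed peak, while 7 of 17 B cell markers had none, Ms4a1 and Pax5 among them. Likewise 5 of 20 myeloid and dendritic markers, Csf1r and Lyz2 among them, and 3 of 15 CD8 T and NK cell markers, Ncr1 and Nkg7 among them, had no listed peak. The other 10, 15 and 12 markers of these lists had a listed peak. Promoter levels over the 11 libraries were 16.2 to 28.4 rppm at H2-Ab1, 17.3 to 62.2 rppm at Cebpb, 37.7 to 55.7 rppm at Runx3, 16.0 to 34.5 rppm at Prf1 and 19.1 to 29.9 rppm at Cd8b1. Their part in the results was not tested.

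Some of these regions hold a start that the authors' annotation did not use. Set against RefSeq (GRCm38.p6), 18 of the 2015 peaks (0.893%) contained a RefSeq transcript start, 11 in exons, 2 in 3' UTRs and 5 at transcript ends. Their median level was 15.4 rppm, against 7.27 rppm for the 1997 without one. Only 2 of the 18 were called in D against A by the test described below, and these were chosen after their values were seen. The bases round their RefSeq starts are shown 5′ to 3′ on the strand of the transcript, with the first transcribed base in capitals.
Scamp1 peak in an exon of Lhfpl2, start of LOC115488151, chr13:94174626-94174655, plus strand: cagggaatcgcaggtgagtgCtggggtatg
Mir1947 peak in the 3' UTR of Lmln, start of Gm38540, chr16:33123527-33123556, minus strand: tgtgaccaccaggctagaagAgcaggaaca
Mir1947 peak in the 3' UTR of Lmln, second start of Gm38540, chr16:33124014-33124043, minus strand: ccagtttcgtactgtggaggAtgggatctt
The Scamp1 peak, whose gene encodes a membrane protein of secretory carriers, averaged 6.91 rppm in D and 3.23 rppm in A, with a log2 change of 0.90 and a limma adjusted p of 0.00288. The Mir1947 peak averaged 4.76 rppm in D and 1.93 rppm in A, with a log2 change of 0.97 and a limma adjusted p of 0.00644.

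Of the 4 most open of these 18 peaks, 2 are shown with a GC-box motif of the KLF/SP zinc finger factors (GGGNGGGGC, either strand) in capitals, because it was found in more of the windows than any other motif searched.
Slc23a3 transcript-end peak, start of Nhej1, chr1:75125259-75125288, minus strand: tgaggttcggGCCCCGCCCaccagggccct
Ubxn6 exon peak, start of Ubxn6, chr17:56075058-56075087, minus strand: ggaagatggcGCCCCGCCCgcgcgaggtgc
Nhej1 encodes a factor of DNA end joining, and Ubxn6 a cofactor of the ATPase p97. The Slc23a3 peak averaged 79.6 rppm in D and 84.8 rppm in A, and the Ubxn6 peak 52.4 rppm in D and 48.1 rppm in A (limma adjusted p = 0.665 and 0.703). The motif was found in 7 of the 21 RefSeq windows concerned (250 bases before to 50 after a start), which is 33.3%, against 17.0% of all 32851 RefSeq windows. The CTCF letters CACNAGNNG were found in 5 of the 21 windows, against 13.1% of all windows. TGTGGTT (RUNX) and CTTTGAT (TCF/LEF) were found in 2 windows each, against 5.27% and 3.73% of all windows. AGGAAGT (ETS), TGANTCA (AP-1) and AAAGGTCA (the NBRE element of NR4A factors) were found in 0 of the 21 windows, against 9.35%, 7.81% and 1.51% of all windows.

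The intragenic regions were narrow and weakly open compared with promoters. Their median level over populations was 7.30 rppm, with 7.77 rppm in exons, 6.97 rppm in 3' UTRs and 7.12 rppm at transcript ends. Introns had 7.23 rppm, intergenic regions 7.64 rppm and peaks within 1000 bases of a start 38.2 rppm. Median widths were 677 bases in exons, 590 bases in 3' UTRs and 618.5 bases at transcript ends, against 647 bases in introns and 1213 bases near starts. Of the 781 exon peaks, 222 (28.4%) lay in the last exon of the named transcript, 137 in exon 2 and 40 in exon 1, with a median of exon 5 of 10. The centres of transcript-end peaks lay a median of 451.5 bases beyond the end of the gene (interquartile range 159.75 to 745.25).

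The gene that contains such a peak was often not the gene the authors assigned to it, because assignment went to the nearest start. The transcript named in the annotation matched a RefSeq gene, called the host gene here, for 2007 of the 2015 peaks. Host and assigned gene were the same for 1111 (55.4%), that is 68.3% of exon peaks, 44.8% of 3' UTR peaks and 48.7% of transcript-end peaks. Where they differ, the host is therefore named beside the assigned gene. The peaks were spread over 1749 assigned genes, of which 1525 had 1 peak and 37 had 3 or more.

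D against A contrasts the highest with the lowest reporter signal. A peak was called when its Benjamini-Hochberg adjusted p in limma, over all 45508 peaks and on the log2(rppm + 1) scale, was under 0.05. Accessibility was higher in D at 144 of the 2015 peaks (7.15%) and lower at 71 (3.52%), against 8.7% of all listed peaks called higher and 3.74% called lower. These shares are near those of the whole table. With the mouse as a block, 220 were higher (10.9%) and 166 lower (8.24%), against 12.5% and 8.79% of all peaks. The median log2 change over the 2015 peaks was -0.05, and over all peaks -0.04. Without mouse 3, whose library was the deepest of each population, only the mouse 1 library of A was left. Far fewer peaks were then called, both among the 2015 and over all peaks. The median log2 change was then -0.08 over the 2015 peaks and -0.05 over all peaks.

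The calls were spread over all 3 kinds of region. Of exon peaks, 44 were higher in D (5.63%) and 33 lower (4.23%). Of 3' UTR peaks, 47 were higher (9.71%) and 14 lower (2.89%). Of transcript-end peaks, 53 were higher (7.07%) and 24 lower (3.2%). Intron peaks over 1000 bases from a start, with almost the same median level, were higher at 1831 of 16401 (11.2%) and lower at 799 (4.87%). Intergenic peaks gave 11.1% and 4.84%, and peaks within 1000 bases of a start 2.74% and 0.901%. With the mouse block, 72 exon peaks were higher and 81 lower, 66 3' UTR peaks higher and 30 lower, and 82 transcript-end peaks higher and 55 lower. The difference between these shares was not tested.

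**Figure D1:**
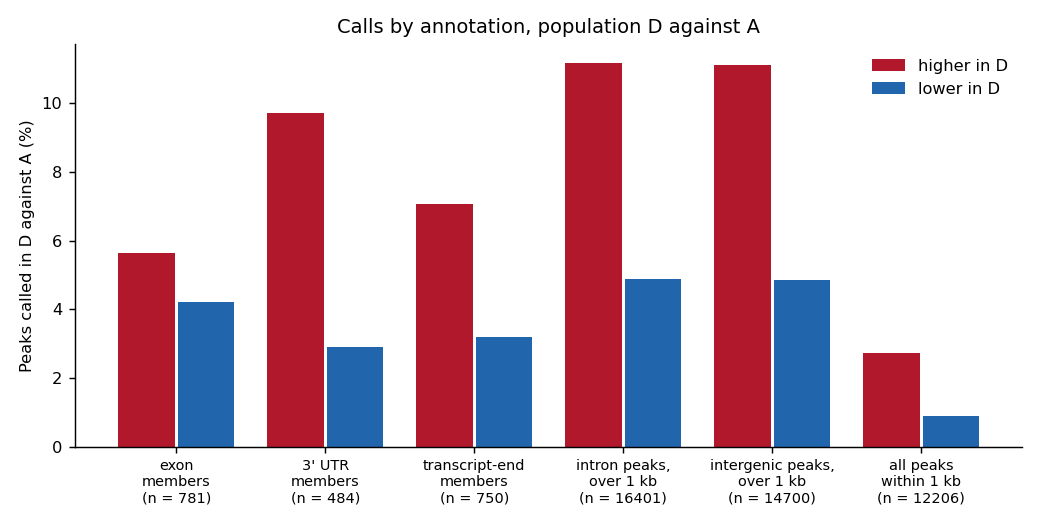
Percentage of peaks called higher (red) or lower (blue) in population D than in A, by annotation, with the number of peaks under each pair of bars. Exon, 3' UTR and transcript-end peaks reach 5.63%, 9.71% and 7.07% higher, below the 11.2% of introns and above the 2.74% of peaks within 1000 bases of a start.

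The share of peaks higher in D was larger in each bin farther from the start. From 2000 bases outward the share lower in D rose too, at 2.47%, 4.08% and 7.94%. Of 240 peaks at 1000 to 2000 bases, 8 were higher in D and 8 lower. At 2000 to 10000 bases, 50 of 889 were higher and 22 lower, and at 10000 to 50000 bases 73 of 760 were higher and 31 lower. Beyond 50000 bases, 13 of 126 were higher and 10 lower. These bins were not counted over all listed peaks. There too the share was smaller near starts, with 2.74% higher within 1000 bases. It was 11.2% of intron and 11.1% of intergenic peaks beyond that distance. Just inside the limit of the rule, at 1000 to 1500 bases, 120 peaks had a median level of 8.30 rppm, with 3 higher and 4 lower. Just outside it, 160 peaks of the same annotations at 500 to 1000 bases had a median of 11.6 rppm, with 8 higher and 3 lower.

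By log2 change, a ranking that favours peaks low in A, the largest gains in D were at regions nearly closed in A. The gains and losses named by size here and below had to be called and without overlap between A and D libraries. Their lack of overlap was therefore fixed by the choice. The peak with the largest change lay at the transcript end of Pxmp2, which encodes a peroxisomal membrane protein, and was assigned to Pgam5, a mitochondrial phosphatase (chr5:110274048-110274659). It had 23.5, 15.7 and 18.4 rppm in D of mice 1, 2 and 3, against 1.20 and 1.61 rppm in A of mice 1 and 3. Every D library was far above every A library, and populations B and C averaged 3.29 and 5.81 rppm. The log2 change was 3.06 (SE 0.19, limma adjusted p = 4.81e-07). Next came exon 7 of 18 of Senp1, a SUMO protease gene, assigned to Pfkm, the muscle phosphofructokinase (chr15:98066422-98067193). It had 13.1, 15.9 and 14.2 rppm in D, against 1.20 and 1.01 rppm in A, again without overlap. Its log2 change was 2.87 (SE 0.20, limma adjusted p = 1.22e-06).

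Other large gains sat in exons. Exon 6 of 9 of Adh4, an alcohol dehydrogenase gene (chr3:138423730-138424637), had 10.0, 9.31 and 10.4 rppm in D, against 0.979 and 0.403 rppm in A. All D libraries exceeded all A libraries, and the log2 change was 2.71 (SE 0.24, limma adjusted p = 5.47e-06). Exon 15 of 28 of Tiam1, which encodes an activator of the GTPase Rac, had 5.39, 5.82 and 4.58 rppm in D, against 0.544 and 0.906 rppm in A. No library of D overlapped A at Tiam1, where the log2 change was 1.86 (SE 0.23, limma adjusted p = 7.48e-05). Exon 2 of 11 of Btbd9 had 4.62, 5.53 and 6.70 rppm in D, against 0.218 and 0.705 rppm in A, with a log2 change of 2.19 (limma adjusted p = 1.48e-05).

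The 3' UTR gains included Rhbdd1, a rhomboid protease gene. Its peak had 6.93, 4.51 and 4.69 rppm in D, against 0.544 and 0.403 rppm in A (log2 change 2.10, limma adjusted p = 3.17e-05). In Secisbp2l, a relative of the selenoprotein translation factor, the 3' UTR peak was assigned to the adaptor gene Shc4. It had 4.62, 5.24 and 5.70 rppm in D, against 0.544 and 0.201 rppm in A (log2 change 2.18, limma adjusted p = 3.01e-06). Both peaks were at or below 1.77 rppm in every A, B and C library, so most of their opening was seen in D.

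At transcript ends, the Atp6v1g3 peak, by a gene for a subunit of the vacuolar proton pump, had 16.6, 17.0 and 13.5 rppm in D, against 3.92 and 2.82 rppm in A (log2 change 1.94, limma adjusted p = 8.18e-06). The end of Cdc23, a subunit of the anaphase-promoting complex, was assigned to the mitotic kinesin gene Kif20a and had 13.1, 6.25 and 8.38 rppm in D, against 1.85 and 1.11 rppm in A (log2 change 2.01, limma adjusted p = 0.000199). The end of Pfdn1, a subunit of the chaperone prefoldin, had 6.55, 3.64 and 5.56 rppm in D, against 0.653 and 0.403 rppm in A (log2 change 2.01, limma adjusted p = 1.62e-05). None of the 3 peaks had a D library within the range of A, as the choice of peaks required. The end of 1700126H18Rik, assigned to the RNA-binding protein gene Rbm47, had 24.6, 17.6 and 16.9 rppm in D, against 5.76 and 3.83 rppm in A. Its means were 9.07 rppm in B and 12.1 rppm in C, and the log2 change was 1.84 (SE 0.24, limma adjusted p = 0.000142).

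Losses in D were smaller than gains. The median log2 change was -0.74 over the 71 lower peaks and 1.01 over the 144 higher ones, and a change of at least 2-fold was reached by 12 and 74 of them. Over all listed peaks that were called, the medians were nearly the same, at -0.71 and 1.01. The largest loss was in the 3' UTR of Zranb3, a DNA translocase gene, assigned to Rab3gap1, a regulator of Rab3 (chr1:127954030-127954604). It had 0, 1.02 and 1.27 rppm in D, against 7.50 and 4.83 rppm in A, with no overlap. Its log2 change was -2.08 (SE 0.31, limma adjusted p = 0.000452). The transcript end of Cenpv, which encodes a centromere protein (chr11:62524107-62524760), had 4.24, 4.22 and 6.08 rppm in D, against 14.7 and 14.5 rppm in A. It averaged 9.99 rppm in B and 8.86 rppm in C, and the log2 change was -1.43 (SE 0.16, limma adjusted p = 4.13e-05).

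The transcript end of Aldh16a1, assigned to the dendritic cell growth factor gene Flt3l, had 2.69, 1.16 and 2.04 rppm in D, against 6.96 and 6.44 rppm in A (log2 change -1.41, limma adjusted p = 0.000912). The end of Tnrc6b, a scaffold of microRNA silencing, was assigned to Mir5113 and had 5.00, 6.83 and 7.46 rppm in D, against 16.1 and 17.7 rppm in A (log2 change -1.28, limma adjusted p = 0.000246). The end of Nacc2, a transcriptional repressor gene, was assigned to Ubac1 and had 9.24, 5.38 and 8.74 rppm in D, against 18.2 and 19.1 rppm in A (log2 change -1.19, limma adjusted p = 0.000595). At all 3 of these peaks every D library lay below every A library, as the choice of peaks required.

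The 3' UTR of Dnajb1, which encodes an Hsp40 chaperone, had 12.7, 6.98 and 9.22 rppm in D, against 22.5 and 23.6 rppm in A (log2 change -1.21, limma adjusted p = 0.00318). Likewise the Sox5 3' UTR, of a transcription factor gene, had 3.08, 3.64 and 4.42 rppm in D, against 9.24 and 9.56 rppm in A (log2 change -1.15, limma adjusted p = 0.000352). D lay below A in every library at both peaks, which the choice of peaks also required. Fam78a had, in its 3' UTR, 6.16, 6.98 and 6.0 rppm in D, against 12.6 and 15.6 rppm in A (log2 change -1.03, limma adjusted p = 0.00239), and its adjusted p was 0.0564 without A of mouse 3. Exon 3 of 7 of Amn1 had 3.08, 2.47 and 3.47 rppm in D, against 8.38 and 6.34 rppm in A (log2 change -1.06, limma adjusted p = 0.00188).

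**Figure D2:**
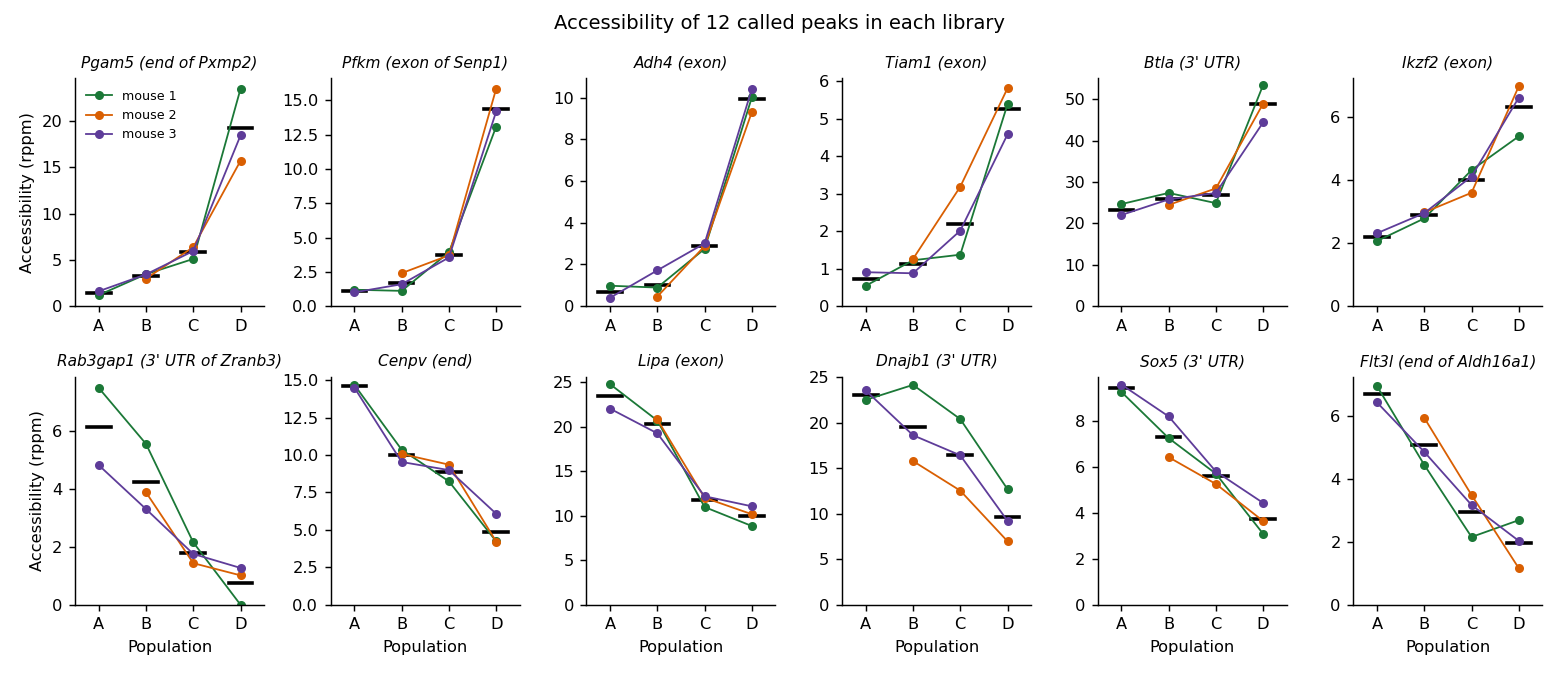
Accessibility (rppm, linear axes from 0) of 12 called peaks in populations A to D, with points joined by mouse and black bars for population means. In the upper row the D libraries stand above all others, up to 23.5 rppm for Pgam5 against 1.61 rppm or less in A; in the lower row D is lowest or near C, as at Lipa with 8.86 to 11.1 rppm in D and 11.0 to 12.2 rppm in C.

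Across the 4 populations the called peaks mostly changed in one direction. Of the 144 peaks higher in D, 143 had no overlap between D and A libraries, and the population means rose in order from A to B, C and D at 108. Their median levels were 3.15, 3.72, 4.80 and 7.43 rppm in A, B, C and D. On the log2 scale, a median of 20.9% of the difference between A and D was reached in B (interquartile range 11.7% to 36.3%) and 46.3% in C (30.4% to 59.9%). The step from C to D was the largest of the 3 at 101 of the 144 peaks, against 19 with the largest step from B to C and 24 from A to B. Of the 71 lower peaks, 71 had no overlap, and means fell in order at 53. Their median levels were 13.0, 11.5, 9.13 and 6.43 rppm in A, B, C and D, with the largest step from C to D at 48. These counts describe peaks already chosen for D against A, a choice that favours a lack of overlap. The same counts were not set against all listed peaks, so they mark no trait of these regions.

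**Figure D3:**
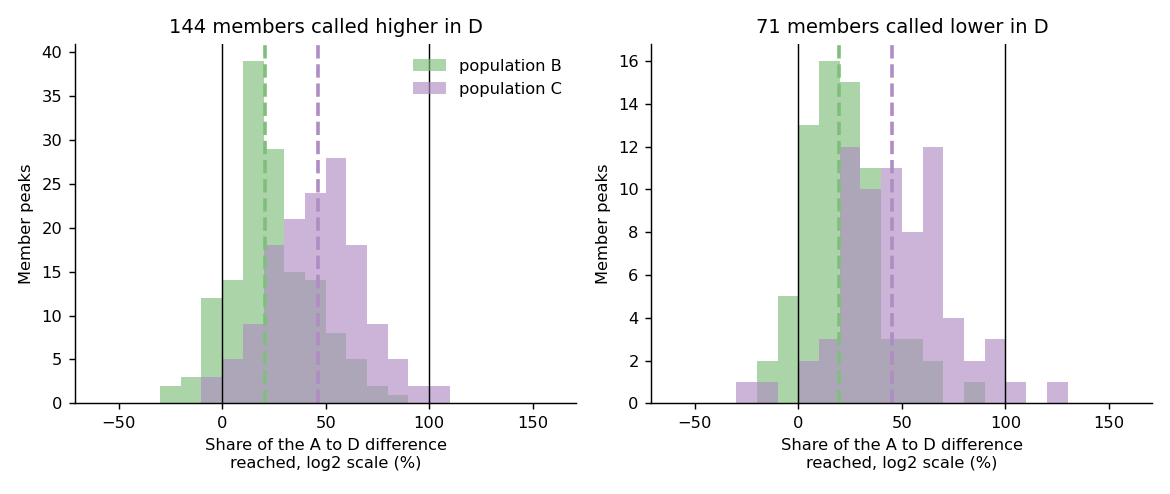
Histograms of how far each called peak had moved from its A level towards its D level (log2 scale, in percent, 0 for A and 100 for D) in populations B (green) and C (purple), with dashed lines at the medians. For higher peaks the medians are 20.9% in B and 46.3% in C, and for lower peaks 19.8% in B and 45.4% in C.

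The exon 4 peak of Lipa, the gene for lysosomal acid lipase, followed another course (chr19:34510603-34511429). It had 8.86, 10.2 and 11.1 rppm in D, 11.0, 12 and 12.2 rppm in C, 20.7, 20.8 and 19.3 rppm in B, and 24.8 and 22.0 rppm in A. The Ly6C- populations were low and the Ly6C+ populations high, with no overlap between them. In D against A the log2 change was -1.15 (limma adjusted p = 4.5e-05). D against C gave -0.21 (limma adjusted p = 0.414) and C against B gave -0.74 (limma adjusted p = 0.0839, and 0.0151 with the mouse block).

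D against C compares high with intermediate reporter among Ly6C- cells, and it shares the D libraries with the comparison above. Of the 2015 peaks, 64 were higher in D (3.18%) and 23 lower (1.14%), against 4.51% and 1.49% of all peaks. With the mouse as a block, 107 were higher (5.31%) and 79 lower (3.92%), against 6.82% and 4.53% of all peaks. Without mouse 3, 12 were called, all higher. Leaving out 1 library took the count to 49 without C of mouse 2, 57 without C of mouse 3 and 57 without D of mouse 2. For these reduced sets, the matching shares over all peaks are not given here. The higher peaks were 19 in exons, 23 in 3' UTRs and 22 at transcript ends, and the lower ones 7, 4 and 12.

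The Btbd9 exon peak gave the largest named gain over C, with 4.62, 5.53 and 6.70 rppm in D, against 0.392, 1.13 and 0.681 rppm in C (log2 change 1.94, limma adjusted p = 4.86e-05). Pfkm, Pgam5 and Shc4 had log2 changes of 1.70, 1.56 and 1.52, with limma adjusted p of 6.3e-05, 8.02e-05 and 5.83e-05. The largest losses were in exon 10 of 17 of Ntrk3, a neurotrophin receptor gene, and at the transcript end of Itpr2, an intracellular calcium channel gene, assigned to Sspn. Ntrk3 had 10.8, 7.85 and 8.90 rppm in D, against 23.5, 13.8 and 17.0 rppm in C (log2 change -0.89, limma adjusted p = 0.00681). The Sspn peak had 12.7, 7.71 and 9.69 rppm in D, against 23, 16.5 and 17.9 rppm in C (log2 change -0.88, limma adjusted p = 0.0077). At Ntrk3 and Sspn the D libraries lay below all C libraries, which the choice of peaks required. The means of A and B were close to that of C. The transcript ends of Cenpv and of Csrnp2, assigned to Letmd1, had log2 changes of -0.77 and -0.85 (limma adjusted p = 0.00518 and 0.0218). The limma adjusted p for Letmd1 was 0.0859 without C of mouse 1, 0.0624 without C of mouse 3 and 0.0852 without D of mouse 2.

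C against B compares Ly6C- with Ly6C+ cells at the same reporter level, and limma called 0 of the 2015 peaks, against 0.0022% of all peaks (1 peak). At an unadjusted p under 0.05 there were 86 (4.27%), against 4.0% of all peaks. The mouse block called 3 (0.149%, against 0.193% of all peaks), edgeR 3 and DESeq2 3. These few were looked at after their values were seen: Lipa and Mfsd4a under all 3 of those fits or tools, Muc4 with the block, Slc12a8 (in Zfp148) with edgeR and Pfkm with DESeq2. Without D of mouse 1, limma called 1, Lipa (adjusted p = 0.0262). B against A compares intermediate with low reporter among Ly6C+ cells, and limma called 0, against 0% of all peaks. At an unadjusted p under 0.05 there were 59 (2.93%), against 2.68% of all peaks. The mouse block called 3 (against 0.0593% of all peaks), all higher in B, Rbm47 and Mir669n (in Slc30a7) among them, edgeR called 0 and DESeq2 called 1, Vps37c. Any difference among the 4 populations was called by limma's F-test at 163 peaks (8.09%), against 9.64% of all peaks, and with the block at 312 (15.5%), against 17.5%.

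The called regions mostly changed without their host gene's promoter. Of the 144 higher peaks, 95 had a listed promoter peak of the host gene, whose median log2 change in D against A was -0.03, with 5 promoters called higher and 1 lower. Of the 71 lower peaks, 51 had one, with a median of -0.12, 0 promoters called higher and 1 lower. For 1260 peaks that were not called, the promoter median was -0.08, with 34 higher and 16 lower. Senp1 and Malt1 were examples, with promoter log2 changes of -0.11 and 0.03. Cd200 was an exception, with its promoter at 0.54 (limma adjusted p = 0.0141), and so was Ly6c1, with its promoter at -0.90 (limma adjusted p = 0.0156). Another peak assigned to the host gene, outside the exon, 3' UTR and transcript-end set, was called higher for 48 of 124 higher peaks (38.7%), for 10 of 65 lower peaks (15.4%) and for 18.2% of peaks not called. Another peak was called lower for 15 of 124 higher peaks (12.1%), for 14 of 65 lower peaks (21.5%) and for 185 of 1548 peaks not called.

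**Figure D4:**
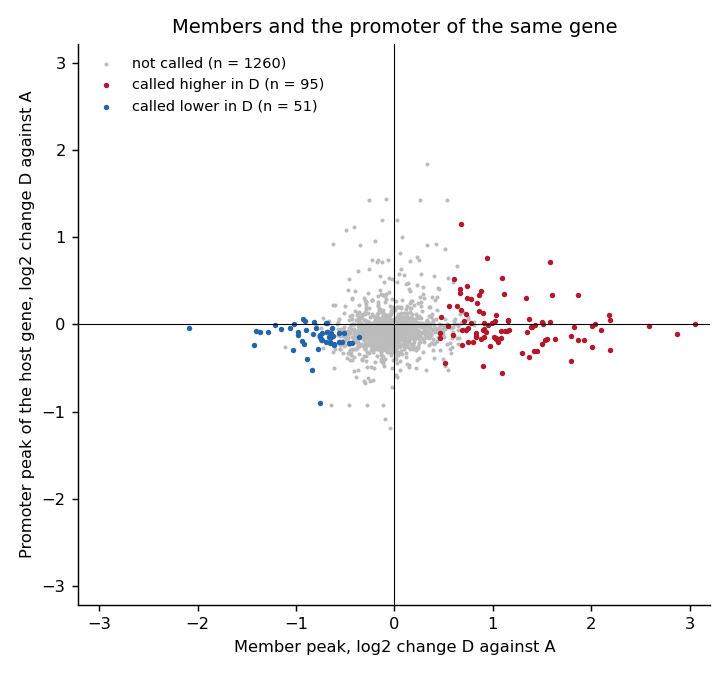
Log2 change in D against A of each exon, 3' UTR or transcript-end peak (horizontal) and of the most open promoter peak of its host gene (vertical), in red where the intragenic peak is called higher, in blue where it is called lower and in grey otherwise. Red and blue points spread along the horizontal axis, up to 3.06 for Pgam5, while their promoters stay near 0, with medians of -0.03 and -0.12.

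Gene lists are counted by assigned gene unless stated otherwise. Genes that restrain T cell activation had 3 higher and 0 lower among 16 peaks, with a median log2 change of 0.03. Among all 338 peaks of the list, 66 were higher and 10 lower. The 3' UTR peak of Btla, an inhibitory receptor (chr16:45251560-45252703), had 53.5, 49.0 and 44.5 rppm in D, 24.9, 28.5 and 27.4 rppm in C, and 24.7 and 22.0 rppm in A. The D libraries stood apart from all others, which did not exceed 28.5 rppm. The log2 change was 1.04 in D against A (SE 0.12, limma adjusted p = 4.32e-05) and 0.84 in D against C (limma adjusted p = 0.000259). The 3' UTR of Cd200, the ligand of an inhibitory receptor (chr16:45381785-45382855), had 15.0, 13.1 and 13.8 rppm in D, against 6.63 and 5.44 rppm in A (log2 change 1.09, SE 0.19, limma adjusted p = 0.00157). Btla and Cd200 were also 2 of the 3 peaks of the follicular helper list, with 0 lower (41 higher and 1 lower among all 166 of its peaks), and Il6st, the third, had a log2 change of -0.04. Sla encodes an adaptor that lowers receptor levels, and its peak lay at the end of the thyroglobulin gene Tg. It had 5.00, 4.36 and 5.24 rppm in D, against 0.435 and 0.503 rppm in A (log2 change 2.00, SE 0.21, limma adjusted p = 2.1e-05). The Socs3 transcript-end peak, of a cytokine signalling inhibitor, had 22.3, 26.0 and 25.8 rppm in D, against 27.6 and 31.5 rppm in A (log2 change -0.25, limma adjusted p = 0.282, and 0.0315 with the mouse block).

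Proximal signalling genes of the T cell receptor had 1 higher and 0 lower among 9 peaks, with a median of -0.05, and 26 higher and 16 lower among all 313 peaks of the list. The transcript end of Malt1, a paracaspase that links the receptor to NF-kB (chr18:65479000-65479810), had 12.3, 11.1 and 10.3 rppm in D, against 2.94 and 3.73 rppm in A. D and A did not overlap, and the log2 change was 1.5 (SE 0.19, limma adjusted p = 0.000138). The 3' UTR of the costimulatory receptor gene Cd28 had 3.46, 8.0 and 7.68 rppm in D, against 3.15 and 3.22 rppm in A (log2 change 0.75, limma adjusted p = 0.0901, and 0.0374 with the mouse block). The ends or exons of Cd3e and Cd3g, subunits of the receptor complex, had log2 changes of -0.39 and -0.37 (limma adjusted p = 0.301 and 0.323).

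Genes induced by the receptor had 0 higher and 0 lower among 7 peaks by assigned gene, with a median of 0.07, although 45 of all 190 peaks of the list were higher and 8 lower. Irf4, Tnfrsf18 (in Ttll10), Cd6 and Cd40lg, a transcription factor, a costimulatory receptor, a surface glycoprotein and the CD40 ligand, had log2 changes of -0.33, 0.09, 0.07 and -0.26. By host gene 1 of 7 was higher, at the transcript end of Nr4a1 itself, assigned to Atg101 and chosen after its values were seen (chr15:101275058-101276171). It had 10.4, 8.87 and 13.2 rppm in D, against 5.11 and 5.64 rppm in A (log2 change 0.88, SE 0.21, limma adjusted p = 0.0138). The adjusted p was 0.125 without A of mouse 1, 0.0757 without A of mouse 3 and 0.0551 without D of mouse 3. The reporter transgene contains Nr4a1 sequence, so reads from it and from the native gene cannot be told apart.

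Regulatory T cell genes had 1 higher and 0 lower among 6 peaks, with a median of 0.16, and 33 higher and 4 lower among all 101 peaks of the list. Exon 3 of 8 of Ikzf2, the gene of the transcription factor Helios (chr1:69683116-69683401), had 5.39, 6.98 and 6.62 rppm in D, 4.32, 3.60 and 4.11 rppm in C, 2.78, 2.98 and 2.95 rppm in B, and 2.07 and 2.31 rppm in A. The libraries of each population lay apart from those of the next. The log2 change in D against A was 1.19 (SE 0.16, limma adjusted p = 0.000213). Peaks of the checkpoint receptor gene Ctla4, of Izumo1r, a gene of the folate receptor family, and of the integrin gene Itgae (at the end of Ncbp3) had log2 changes of -0.18, 0.23 and 0.25 (limma adjusted p = 0.491, 0.302 and 0.362). The promoters of Ctla4 and Izumo1r rose, by 0.72 and 0.77 (limma adjusted p = 0.000498 and 0.00345).

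Genes of naive homing and quiescence had 0 higher and 0 lower among 18 peaks, with a median of -0.02. Among all 509 peaks of the list, 43 were higher and 28 lower. By host gene there were 0 higher and 1 lower among 22 peaks, the lower one in Il6ra, while blocking by mouse gave 1 higher and 4 lower. The 3' UTR of S1pr1, the receptor for exit from lymph nodes, had 16.2, 10.3 and 13.2 rppm in D, against 8.92 and 8.15 rppm in A (log2 change 0.56, limma adjusted p = 0.0579, and 0.0115 with the mouse block). The end of Btg2, an antiproliferative gene, had 13.5, 14.0 and 16.7 rppm in D, against 20.8 and 21.4 rppm in A (log2 change -0.50, limma adjusted p = 0.0948, and 0.0411 with the block). D and A did not overlap at either gene. The peak assigned to the cytokine receptor gene Il7r, at the end of Spef2, had a log2 change of -0.46 (limma adjusted p = 0.134).

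Factors of the AP-1, NFAT and NF-kB families had 0 higher and 1 lower among 15 peaks, with a median of -0.09, and 21 higher and 8 lower among all 220 peaks of the list. The lower one was the 3' UTR of Atp9b, a flippase gene, assigned to Nfatc1, with 18.1, 18 and 19.1 rppm in D, against 24.5 and 23.3 rppm in A (log2 change -0.36, limma adjusted p = 0.0452). This call was lost under each of 17 alternatives, with adjusted p between 0.0530 and 0.481. The end of Dus2, assigned to Nfatc3, had 58.5, 36.8 and 44.0 rppm in D, against 33.1 and 26.6 rppm in A (log2 change 0.61, limma adjusted p = 0.053, and 0.000279 with the mouse block). Fosb and Fos peaks had log2 changes of -0.30 and 0.12 (limma adjusted p = 0.322 and 0.866).

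Exon 3 of 4 of Ly6c1, a gene of the Ly6C protein used in the sort, was the 1 peak of the Ly6 cluster, where 0 of all 41 listed peaks were higher and 12 lower. It had 1.16, 2.33 and 1.87 rppm in D, against 3.26 and 4.03 rppm in A (log2 change -0.76, SE 0.23, limma adjusted p = 0.0432). The D libraries were below those of A, but the call was lost without either A library (adjusted p = 0.118 without mouse 1 and 0.308 without mouse 3) and without each of 5 other libraries. Ly6c1 has a near-identical neighbour, Ly6c2, so reads may be split between them. Identity factors had 0 higher and 0 lower among 5 peaks, interferon response genes 0 and 0 among 5, and effector and memory genes 0 and 0 among 2. Their medians were -0.01, 0.01 and 0.01. Among all peaks of these lists, 43 of 361 were higher and 11 lower for identity factors, 0 of 74 higher and 5 lower for interferon response genes, and 21 of 135 higher and 6 lower for effector and memory genes.

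Few of the 2015 peaks were assigned to markers of other cell types. CD4 T cell markers had 6 peaks, with a summed level of 116 to 130 rppm in D and 119 to 121 rppm in A. B cell markers had 4 peaks (Cd79b at the end of Scn4a, Bank1, H2-Ab1 and H2-Eb1), with a sum of 26.2 to 38.1 rppm in D and 35.0 to 38.3 rppm in A. Myeloid and dendritic markers had 2 (Clec9a and Zbtb46), with 8.29 to 9.63 rppm in D and 5.98 to 7.75 rppm in A. CD8 T and NK cell markers had 1 (Crtam), with 5.01 to 6.40 rppm in D and 4.24 to 7.35 rppm in A. Limma called 0 of these 13 peaks in D against A, against 12.4% of all peaks, and Cd28 was called higher with the mouse block. Among all listed peaks, 5 of 110 were higher and 5 lower for CD4 T cell markers, and 4 of 32 higher and 0 lower for B cell markers. Myeloid and dendritic markers had 4 of 38 higher and 4 lower, and CD8 T and NK cell markers 7 of 60 higher and 5 lower. The 13 peaks are too few to show that such markers were unchanged.

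The most open regions of the set were mostly stable. The highest was the 3' UTR of Lars2, a mitochondrial leucyl-tRNA synthetase gene, assigned to Limd1, with 162, 299 and 194 rppm in D, 129, 248 and 172 rppm in C, 103, 224 and 188 rppm in B, and 172 and 223 rppm in A. It varied by mouse more than by population, with mouse 1 lowest in every population. Exon 1 of Jund had 161, 156 and 139 rppm in D, against 161 and 150 rppm in A, and the end of Junb had 102, 105 and 95 rppm in D, against 109 and 106 rppm in A. Both encode AP-1 subunits, and D and A overlapped at Jund and lay apart at Junb by little (limma adjusted p = 0.895 and 0.642). Exon 2 of 5 of Acer2, an alkaline ceramidase gene, had 72.8, 71.6 and 72.4 rppm in D, against 110 and 97.9 rppm in A (log2 change -0.51, SE 0.10, limma adjusted p = 0.0033, and 0.0758 without A of mouse 1).

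The gene with most peaks of this kind was She, an adaptor gene, with 5, of which 3 lay at the end of its neighbour Il6ra, the interleukin 6 receptor. The Il6ra 3' UTR peak at chr3:89870870-89871451 had 10.8, 11.3 and 13.3 rppm in D, against 18.9 and 19.2 rppm in A (log2 change -0.65, SE 0.16, limma adjusted p = 0.0128). The limma adjusted p was 0.0906 without A of mouse 1 and 0.105 without A of mouse 3, so the call was lost without either. The other 2 peaks of Il6ra had log2 changes of -0.40 and -0.42 (limma adjusted p = 0.106 and 0.0847, and 0.034 and 0.0444 with the mouse block). Satb1, a chromatin organiser, Btg1, an antiproliferative gene, and Ldhd, a lactate dehydrogenase gene (3 of its peaks lay in Znrf1), had 4 peaks each, with limma calling 0 of the 12 in D against A. The log2 changes of the 4 Satb1 peaks ran from -0.04 to 0.13, and those of the 4 Btg1 peaks from -0.09 to 0.16.

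As a class, the regions held similar shares of reads in all libraries. The summed share of the 2015 peaks was 2.39%, 2.52% and 2.61% in D, 2.46%, 2.52% and 2.60% in C, 2.52%, 2.54% and 2.54% in B, and 2.48% and 2.49% in A. D averaged 2.51% ± 0.111 (SD, n = 3) and A 2.49% ± 0.00338 (SD, n = 2), with D libraries on either side of A. The difference of 0.0200 percentage points was -0.0330 without D of mouse 3 and 0.0778 without D of mouse 1. Of the reads in peaks over 1000 bases from a start, D minus A was -0.113 percentage points, the opposite direction. The share of 3' UTR peaks averaged 0.557% ± 0.0230 in D (n = 3) and 0.537% ± 0.000870 in A (n = 2), with D above A by 0.0463 percentage points in mouse 3 and below it by 0.000128 points in mouse 1. On the log2(rppm + 1) scale, the mean of the 2015 peaks minus that of 31276 other peaks over 1000 bases from a start was -0.135, -0.018 and -0.035 in D, and -0.023 and 0.016 in A. D minus A was -0.112 in mouse 1 and -0.0502 in mouse 3. The lowest value belonged to D of mouse 1, the shallowest library. Without it the D minus A difference was -0.02, against -0.06 with it, and the part of depth was not tested.

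**Figure D5:**
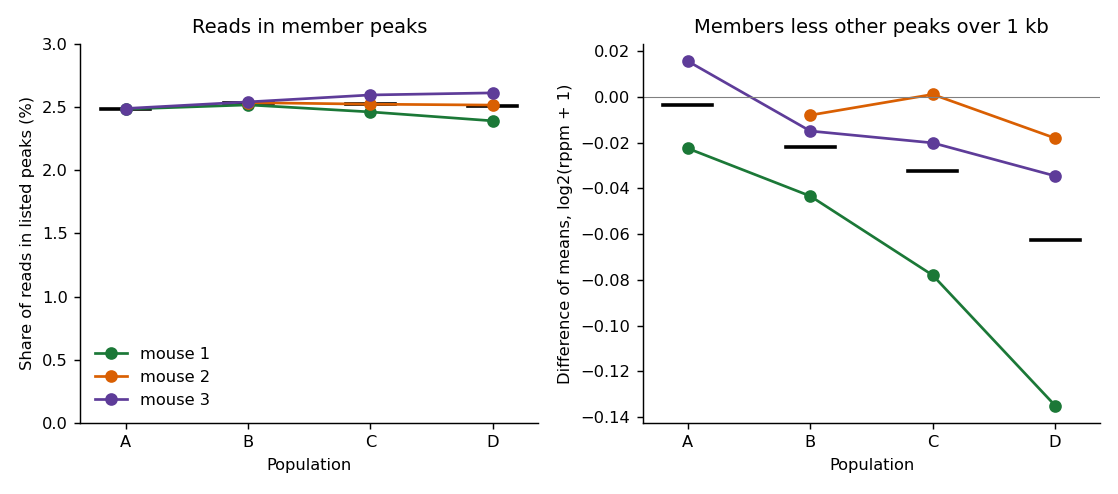
Left, the share of reads in listed peaks (%) held by the 2015 peaks in each library of populations A to D. Right, their mean log2(rppm + 1) minus that of other peaks over 1000 bases from a start; lines join libraries of a mouse and black bars are population means. Shares lie between 2.39% and 2.61%, and the difference is lowest, at -0.135, in D of mouse 1.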

How the data were processed

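ATAC-seq was run on 10000 sorted cells per library, with tagmentation for 1 h at 37 °C, per the labels' protocols. The submitters' processing notes name Bowtie, MACS2 and the build mm10, while versions, filters and the annotation tool are not given in the sources used here. The deposited table gives each peak in each library as rppm, reads per peak scaled by the authors to a common library size (an RPM unit). All values (100%) in the 11 libraries were whole multiples of 1 read within 0.0006 rppm, which gave the depths and whole reads.

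Peaks were selected from the authors' annotation and distance columns. limma 3.58.1 (R 4.3.3, trend) was fitted to log2(rppm + 1) of all 45508 peaks and 11 libraries, with 1 mean per population and no filter, and was tested on simulated data. A fold change on this scale understates that of low peaks. Alternatives were other pseudocounts (0.25 and 5), a filter at 5 rppm, 2 other scalings, the mouse as a block, edgeR 4.0.16 and DESeq2 1.42.0 on recovered reads, and leaving out libraries. Libraries of a mouse pair by the labels: over the 2015 peaks, deviations from population means correlated at 0.159 to 0.511 within mice (15 pairs) and at -0.41 to 0.178 between mice (30 pairs).

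Named peaks followed a rule: the 12 higher and 10 lower of largest change in D against A that were called, without overlap and at 5 rppm or more in the higher population, with 1 peak per gene and a regular gene symbol; 4 per direction for each other comparison; 2 per direction and annotation; up to 4 genes per gene list by F-test; the 5 most open; and the 4 genes with most peaks. The peaks and the 15 lists were chosen with earlier results of these data known. Gene IDs matched RefSeq for 2014 of 2015 peaks. Sequences are from RefSeq windows of GRCm38.p6, and no genome was used here. Some peaks that the rule names are not reported here.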

Additional observations from a re-analysis of the deposited data

How the results depend on the processing

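Counts of called peaks among the 2015 changed as follows. D against A called 215, with 110 under the filter at 5 rppm, which tests fewer peaks, 386 with the mouse as a replicate block, 142 with the libraries of the 2 populations only and 36 without mouse 3, and 109 to 230 leaving out 1 library (118 without A of mouse 1, 109 without A of mouse 3). D against C called 87, with 36, 186, 41 and 12 under the same 4 alternatives, and 49 to 92 leaving out 1 library. The F-test called 163, with 85 under the filter, 312 with the block, 28 without mouse 3 and 114 to 168 leaving out 1 library. C against B called 0, with 3 under the block, 3 by edgeR, 3 by DESeq2 and 0 to 1 leaving out 1 library. B against A called 0, with 3 under the block and 1 by DESeq2. The cause of these moves was not tested. On recovered reads, edgeR called 180 higher and 73 lower in D against A, against 4517 and 1908 over all peaks. DESeq2 called 135 and 61, against 3786 and 1433. Of the calls in D against A 67.0% were higher, against 69.9% of the calls over all peaks. The share was 56.4% under quantile normalization, 57.0% with the block and 76.1% with 2 populations. Over all peaks the split moved too, with 3525 higher and 2249 lower under quantile normalization and the counts above for the others.

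With shares taken of peaks over 1000 bases from a start, D minus A was -0.113 percentage points for the 2015 peaks (0.0200 of all listed peaks), -0.0931 for exon peaks (-0.0121) and -0.0315 for transcript-end peaks (0.0114), since the promoter peaks leave the denominator. Of 44 named changes called, 845 of 910 alternative values kept call and direction, 65 lost the call and 0 reversed. Many of the 44 were chosen for a large change without overlap. Leaving out a library of B or C cannot alter a log2 change of D against A. The lack of reversals was thus largely fixed beforehand. The block ended 0 of the 44 calls, and dropping mouse 3 ended 23. Depth limits D of mouse 1 most.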
